A study of Homo sapiens with 8 samples.

Results

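The histone genes were taken from the array annotation by symbol, as probesets assigned to 1 gene whose symbol names a gene of the H1 family, a cluster gene of H2A, H2B, H3 or H4, or a gene of H2AX, H2AZ, H2AJ, H3-3 or MACROH2A. This gave 67 probesets of 67 genes, out of 18417 genes named by such probesets, with 57 replication-dependent and 10 variant genes. The 4 arrays labelled Cisplatin-resistant held RNA of OVCAR-8R spheroids, a line that the labels name OVCAR-8C, and the 4 arrays labelled Cisplatin-sensitive held RNA of spheroids of its parent OVCAR-8, a human ovarian adenocarcinoma line. OVCAR-8R was selected in rising amounts of the DNA crosslinker cisplatin, 5 μM at the highest, and stayed resistant after the drug was withdrawn. It is 1 selected line, so selection by the drug and passage of this line cannot be told apart. Spheroids of both lines grew to 300 μm in agarose molds. Total RNA was labelled by a whole-transcript assay, which does not need a poly(A) tail, for Affymetrix Human Gene 1.0 ST arrays. The titles number biological replicates and do not say whether cultures, spheroids or extracts were separate, so a p-value here reflects only how these 8 arrays vary, which may be partly technical.

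Histones are the proteins around which DNA is wound in the nucleus. The core histones H2A, H2B, H3 and H4 form the nucleosome, and the linker histone H1 binds where DNA enters and leaves it. Replication-dependent histone genes lie in clusters of intronless copies, are transcribed mainly in S phase and end in a stem-loop in place of a poly(A) tail. Variant histone genes mostly stand alone, are expressed largely outside S phase as well and supply proteins with roles of their own, for example in DNA repair or in silent chromatin. Cisplatin adducts block replication forks, where newly made histones are deposited.

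Signals are log2 of the deposited RMA intensity, and every difference is the OVCAR-8R mean minus the OVCAR-8 mean on that scale, with its standard error (SE) from limma and 4 arrays per line. A gene rose or fell where the Benjamini-Hochberg adjusted p was under 0.05 over all probesets kept and the difference was at least 2-fold. The median signal of an array lay between 6.68 and 6.73 in OVCAR-8R and between 6.67 and 6.73 in OVCAR-8. Probesets whose mean fell in the lowest quartile of each line, below 5.11 in OVCAR-8R and below 5.16 in OVCAR-8, were not tested. That removed the histone genes H1-1, H2AC1, H2BC1 and H4C7, so 63 of the 67 were tested among 15931 genes. Of 12 ovarian carcinoma markers 6 rose in OVCAR-8R, among them KRT7 by 4.45, MSLN by 3.83, PAX8 by 3.77 and KRT8 by 2.97. The OVCAR-8 means of KRT7, MSLN and PAX8, 6.36 to 6.51, lay below the array medians. WT1, EMX2 and CDH1 were lower by less than 2-fold (−0.86, −0.69 and −0.23, arrays not overlapping), and MUC16, SOX17 and KRT19 overlapped. Of 9 leukocyte markers 5 were not tested, PTPRC and CD3E among them, and CD68 rose by 2.52, while none of 5 endothelial markers passed.

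Some replication-dependent histone genes rose strongly in OVCAR-8R spheroids while most stayed near level. Of the 53 tested, 14 rose and 3 fell, which is to be read against the 8.37% of all genes that rose and the 8.37% that fell. The median difference of the 53 was 0.10, against −0.01 for all genes, so the typical gene of the family was near 0. The 14 that rose spanned differences of 1.21 to 5.61, with 12 of them at least 4-fold and 6 at least 8-fold. The adjusted p of these 14 in limma lay between 1.0e-09 and 3.8e-05. Without a limit on size, 20 passed as higher, against a background of 27.6%, and 10 as lower, against 30.0%. The arrays of the lines did not overlap in 30 of the 53 genes, 20 above and 10 below, where 56.8% of all genes did not overlap. A smaller share of cells in S phase and less histone RNA per cell cannot be told apart in such bulk RNA, nor can their opposites.

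**Figure D1:**
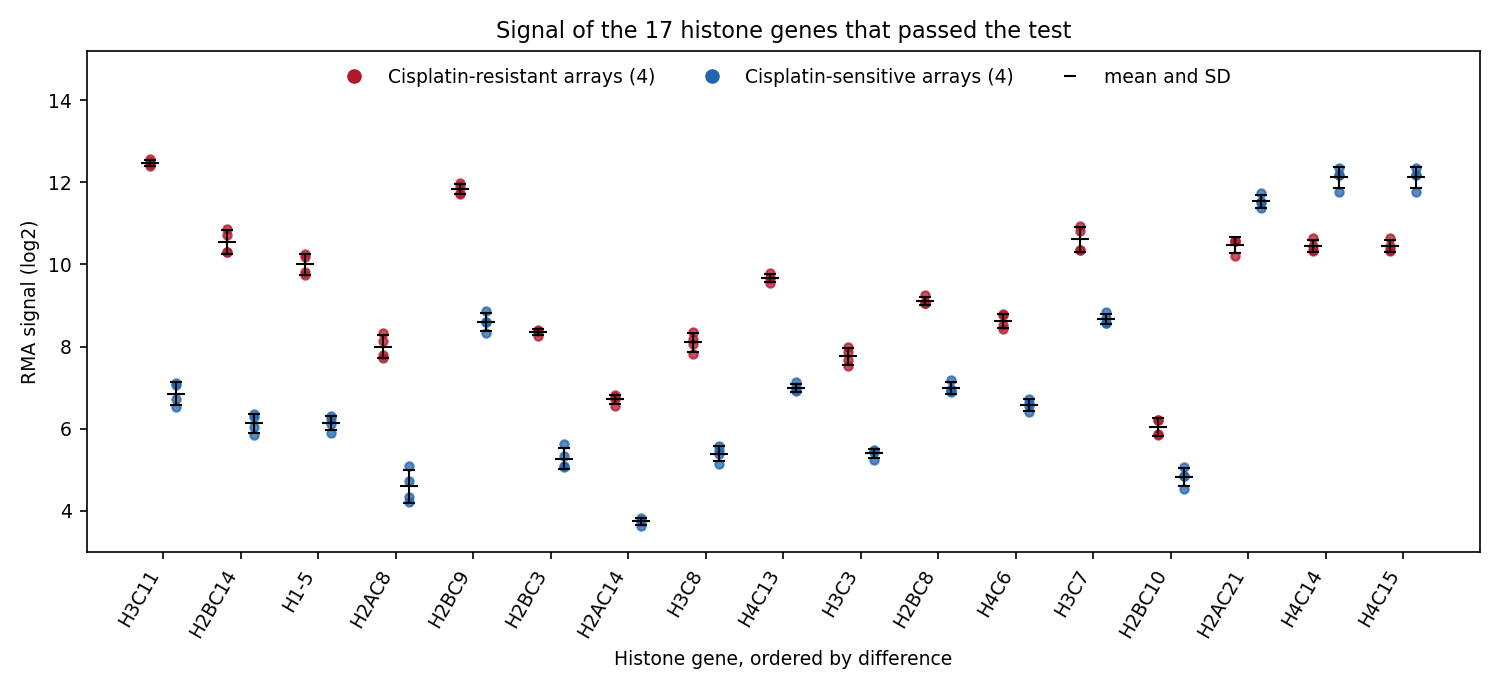
Log2 RMA signal on each array of the 17 histone genes that passed the test, OVCAR-8R (Cisplatin-resistant) in red and OVCAR-8 (Cisplatin-sensitive) in blue, with the mean and SD of 4 arrays per line, ordered by the difference. In all 17 the arrays of the lines are apart, and H4C14 and H4C15 carry the same values.

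Promoter sequences from RefSeq (GRCh38.p14) are shown because genes of 1 class differed in response. Of the 67 genes 62 had an entry, and 5 had none (H4C1, H4C3, H2AC12, H3C11 and H3C12). The last 120 bases before the start are shown for 3 H2B genes (H2BC14 and H2BC9, which rose, and H2BC12, which did not pass), for H1-5, which rose, and for 2 H4 genes (H4C13, which rose, and H4C14, which fell). Capitals mark any of 5 motifs, which were searched on both strands. CCAAT is the CCAAT box, a common promoter element that the factor NF-Y binds. ATTTGCAT is the octamer, the element of H2B promoters that the factor OCT1 binds. GGTCCG is the core of the element through which the factor HINFP acts on H4 promoters. AAACACA is the H1 box, an element first described in promoters of linker histone genes. TATAAA is the TATA box, where the general transcription machinery assembles. None of the 5 motifs contains another.
H2BC14 (chr6:27814902-27815021, plus strand): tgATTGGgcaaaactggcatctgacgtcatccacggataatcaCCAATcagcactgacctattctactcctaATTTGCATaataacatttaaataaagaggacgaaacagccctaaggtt
H2BC9 (chr6:26251494-26251613, plus strand): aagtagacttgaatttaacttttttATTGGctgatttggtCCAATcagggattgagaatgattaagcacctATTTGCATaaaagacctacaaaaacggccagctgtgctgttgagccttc
H2BC12 (chr6:27146859-27146978, minus strand): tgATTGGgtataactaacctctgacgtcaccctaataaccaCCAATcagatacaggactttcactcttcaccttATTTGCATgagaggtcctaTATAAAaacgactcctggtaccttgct
H1-5 (chr6:27867589-27867708, minus strand): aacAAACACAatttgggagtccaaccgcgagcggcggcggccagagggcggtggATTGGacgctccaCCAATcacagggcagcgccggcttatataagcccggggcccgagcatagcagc
H4C13 (chr6:27873535-27873654, minus strand): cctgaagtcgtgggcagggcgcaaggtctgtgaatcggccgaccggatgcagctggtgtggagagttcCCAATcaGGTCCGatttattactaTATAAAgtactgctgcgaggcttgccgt
H4C14 (chr1:149832537-149832656, plus strand): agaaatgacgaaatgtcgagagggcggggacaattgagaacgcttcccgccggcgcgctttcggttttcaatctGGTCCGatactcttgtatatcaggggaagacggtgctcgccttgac

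The 3 H2B promoters share a CCAAT box on each strand and an octamer nearer the start, although H2BC14 and H2BC9 rose and H2BC12 did not. Over the full windows of 300 bases, 13 of 16 H2B genes held the octamer, which 1.8% of 27305 RefSeq promoters hold, and so did 10 of 13 H2A genes. Neighbouring H2A and H2B genes that start back to back share part of their windows, so these are not separate promoters. All 5 H2B genes that rose held the octamer, as did 7 of the 10 that were tested and did not rise. The H1 box was found in 6 of 6 H1 promoters, against 5.76% of all promoters, and H1-5 was the only H1 gene that rose. The HINFP core was found in 10 of 11 H4 promoters, against 11.2% of all, and it is present both in H4C13 and in H4C14. A CCAAT box was found in both H4 genes that rose and in 1 of 8 other tested H4 genes with an entry, against 35.7% of all promoters. Among replication-dependent genes with an entry, the CCAAT box was in 13 of the 13 that rose. It was in 27 of the 32 that did not pass and in 1 of the 3 that fell. Every H1, H2A, H2B and H3 promoter held it, so all genes without it were H4 genes and these counts follow class. The TATA box was in 7 of those 13 and in 22 of those 32, against 12% of all promoters. A match of letters is a description and not a binding site.

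Of 8 H3 genes tested with probesets of their own, 4 rose and none fell, against 8.37% of all genes in each direction. H3C13, H3C14 and H3C15 were measured only by probesets shared among them. These gave differences of −1.04 to −0.996, and 2 of them passed as lower. The H3 copies on chromosome 6 encode H3.1, the form of H3 that is deposited during replication. H3C11 had signals of 12.57, 12.48, 12.39 and 12.44 on the OVCAR-8R arrays, against 6.53, 7.06, 7.11 and 6.72 on the OVCAR-8 arrays. All OVCAR-8R arrays lay far above all OVCAR-8 arrays, and the difference of 5.61 (SE 0.13, 49.0-fold) was the largest of any histone gene. The annotation also gives H3C11 a probeset that it shares with another H3 gene, and there the difference was 0.54 (SE 0.13), so the large rise was seen with the gene's own probeset and not with the shared one. H3C8 had 8.37, 8.07, 8.19 and 7.81 in OVCAR-8R, against 5.48, 5.39, 5.59 and 5.13 in OVCAR-8, a rise of 2.71 (SE 0.13). H3C3 had 8.00, 7.68, 7.86 and 7.53 in OVCAR-8R, against 5.47, 5.43, 5.47 and 5.24 in OVCAR-8, a rise of 2.36 (SE 0.11). H3C7 had 10.94, 10.34, 10.82 and 10.35 in OVCAR-8R, against 8.58, 8.84, 8.70 and 8.57 in OVCAR-8, a rise of 1.94 (SE 0.15). In each of these genes the lowest OVCAR-8R array was above the highest OVCAR-8 array. The OVCAR-8 means of H3C8 and H3C3, both 5.40, were not far above the low-signal limit of 5.16, so the sizes of these rises are uncertain. The other tested H3 genes were close to 0, with overlapping arrays in each. Their differences were 0.02 for H3C1, −0.13 for H3C2, 0.01 for H3C10 and 0.02 for H3C12. The response was therefore split within the class, since the 4 genes that did not pass had 95% intervals between −0.34 and 0.39.

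Among H2B genes, 5 of 15 rose and none fell, against 8.37% of all genes in each direction. H2B pairs with H2A in the nucleosome, and its cluster copies differ from each other at only a few residues. H2BC14 had 10.29, 10.73, 10.31 and 10.87 in OVCAR-8R, against 5.84, 6.05, 6.28 and 6.36 in OVCAR-8. The lines were far apart, with a difference of 4.41 (SE 0.16, 21.3-fold). H2BC9 had 11.73, 11.90, 11.72 and 11.99 in OVCAR-8R, against 8.59, 8.34, 8.59 and 8.87 in OVCAR-8, a rise of 3.24 (SE 0.12). H2BC3 had 8.37, 8.41, 8.25 and 8.38 in OVCAR-8R, against 5.32, 5.63, 5.09 and 5.06 in OVCAR-8, a rise of 3.08 (SE 0.12). Both rose on every array, and the OVCAR-8R arrays of H2BC3 lay close together (SD 0.07). The OVCAR-8 mean of H2BC3, 5.27, was just above the low-signal limit of 5.16, so the size of its rise is uncertain. H2BC8 rose by 2.12 (SE 0.09), with 9.06, 9.06, 9.27 and 9.06 in OVCAR-8R, against 6.89, 7.19, 6.96 and 6.92 in OVCAR-8. H2BC10 rose by 1.21 (SE 0.13), with 6.22, 5.84, 6.22 and 5.86 in OVCAR-8R, against 4.53, 5.06, 4.85 and 4.86 in OVCAR-8. The OVCAR-8 mean of H2BC10 lay in the lowest quartile, near background, so the size of its difference is uncertain, and it did not pass when a difference above 2-fold was itself tested (limma treat). H2BC7 lay just short of the threshold at 0.96 (SE 0.19), with 9.25, 9.77, 9.27 and 9.86 in OVCAR-8R, against 8.60, 8.22, 8.55 and 8.96 in OVCAR-8. It passed when OVCAR-8R array 1 or 3 or OVCAR-8 array 4 was left out, at 1.05 to 1.09. The other 9 tested H2B genes had differences between −0.57 and 0.29.

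H2A genes gave 2 rises and 1 fall among 13 tested, not far from the 8.37% of all genes in each direction. H2A carries the surface on the nucleosome at which many chromatin proteins dock. H2AC8 had 8.13, 7.72, 8.32 and 7.80 in OVCAR-8R, against 4.22, 5.10, 4.34 and 4.73 in OVCAR-8, a rise of 3.39 (SE 0.20). H2AC14 had 6.77, 6.56, 6.82 and 6.72 in OVCAR-8R, against 3.64, 3.83, 3.76 and 3.75 in OVCAR-8, a rise of 2.97 (SE 0.08). Both means in OVCAR-8 lay in the lowest quartile of signal, so the sizes of these rises are uncertain. H2AC4, H2AC17 and H2AC16 were higher on every OVCAR-8R array but by less than 2-fold, with differences of 0.68 (SE 0.13), 0.61 (SE 0.08) and 0.47 (SE 0.07).

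Linker histone H1 had a single responder among 5 tested genes, where 8.37% of all genes rose and 8.37% fell. H1-5, which encodes one of the somatic H1 subtypes, had 10.26, 9.83, 10.19 and 9.74 in OVCAR-8R, against 6.31, 5.91, 6.23 and 6.11 in OVCAR-8. All arrays were apart, with a rise of 3.86 (SE 0.14, 14.6-fold). H1-4, another somatic subtype, had 13.74, 13.75, 13.66 and 13.77 in OVCAR-8R, against 13.99, 14.03, 14.04 and 13.94 in OVCAR-8, a difference of −0.27 (SE 0.06) that was under 2-fold. H1-2 and H1-3 were near 0, at −0.22 (SE 0.09) and 0.07 (SE 0.11). H1-6, a testis form, had a difference of −0.70 (SE 0.14), with 4.97 to 5.62 in OVCAR-8R, against 5.80 to 6.20 in OVCAR-8.

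H4 genes moved in both directions, with 2 rises and 2 falls among 12 tested genes, against 8.37% of all genes in each direction. H4 genes encode nearly always the same protein, and their messages differ mainly outside the coding part. H4C13 had 9.80, 9.68, 9.54 and 9.66 in OVCAR-8R, against 7.13, 6.91, 7.01 and 6.94 in OVCAR-8, a rise of 2.67 (SE 0.08). H4C6 had 8.77, 8.44, 8.78 and 8.52 in OVCAR-8R, against 6.56, 6.73, 6.63 and 6.40 in OVCAR-8, a rise of 2.04 (SE 0.11). The spread within each line was small beside both differences. H4C14 and H4C15, neighbouring genes on chromosome 1, had 10.64, 10.33, 10.34 and 10.46 in OVCAR-8R, against 12.17, 12.35, 12.18 and 11.76 in OVCAR-8, a fall of 1.68 on the log2 scale (SE 0.13). Their probesets hold identical values on all arrays and are 1 measurement, so the 3 histone genes that fell rest on 2 measurements. Probesets that the annotation assigns to both of these genes gave −0.67 (SE 0.11), which is the same direction but short of 2-fold. H4C16, the only histone gene tested on chromosome 12 among the replication-dependent ones, had 5.22, 4.94, 5.02 and 5.07 in OVCAR-8R, against 6.25, 6.25, 5.81 and 5.85 in OVCAR-8. That difference of −0.97 (SE 0.12) was just short of the threshold, which it passed at −1.03 to −1.05 when OVCAR-8R array 1 or OVCAR-8 array 3 or 4 was left out, and the OVCAR-8R mean lay in the lowest quartile. H4C3 was bright in both lines and differed by −0.30 (SE 0.10), with 12.43, 12.08, 12.34 and 12.22 in OVCAR-8R, against 12.60, 12.71, 12.59 and 12.37 in OVCAR-8.

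Rises and falls lay on different chromosomes. Of 45 genes tested in the large cluster on chromosome 6, 14 rose and none fell (median 0.18). Of 7 tested on chromosome 1, none rose and 3 fell (median −0.84). Of all genes 8.37% rose and 8.37% fell. H4C14 and H4C15 are counted apart in the 7, the 3 and the median, although they are 1 measurement. The third gene that fell was H2AC21 on chromosome 1, with 10.56, 10.57, 10.20 and 10.58 in OVCAR-8R, against 11.51, 11.74, 11.51 and 11.37 in OVCAR-8, a fall of 1.06 on the log2 scale (SE 0.11). This call is near the threshold and was lost without OVCAR-8R array 3, at −0.96, and without OVCAR-8 array 2, at −0.99. Its neighbour H2AC20 had 10.90, 10.15, 10.76 and 10.16 in OVCAR-8R, against 11.42, 11.17, 11.45 and 11.29 in OVCAR-8, a difference of −0.84 (SE 0.17) with no overlap. The remaining chromosome 1 genes H2BC21, H2AC25 and H2BC26 lay at 0.24, −0.01 and −0.26, short of the threshold. The split by chromosome was noticed in these values and was not tested.

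**Figure D2:**
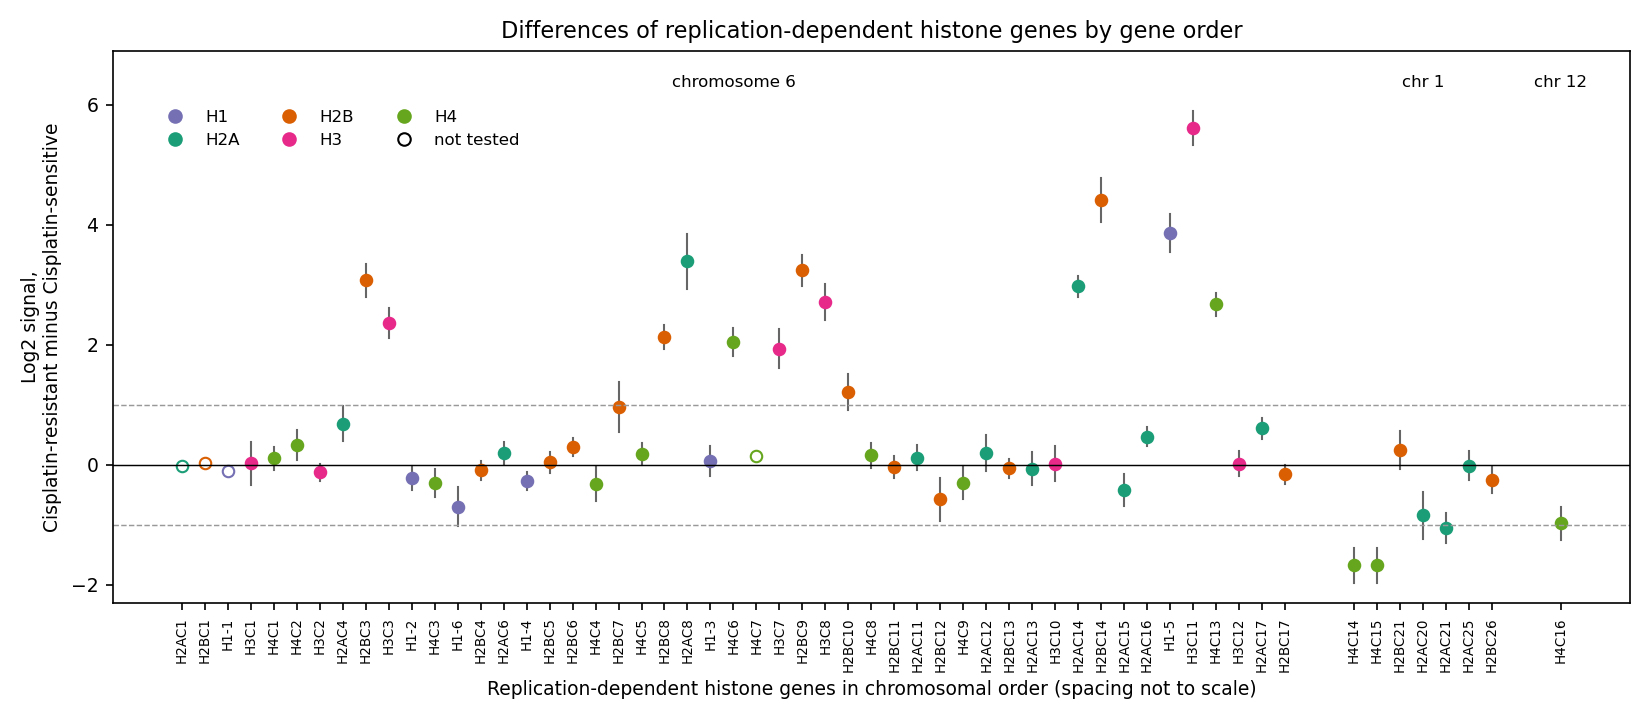
Difference in log2 signal, OVCAR-8R minus OVCAR-8, of the replication-dependent histone genes in chromosomal order, coloured by class, with 95% intervals and the 2-fold limits dashed; open circles are the 4 genes not tested. All 14 genes that rose lie on chromosome 6, each with another that rose as its nearest tested neighbour on at least 1 side, and the 3 that fell lie on chromosome 1.

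Within the chromosome 6 cluster each gene that rose lay beside another that rose, a pattern noticed in these values and not tested. In the order of RefSeq (GRCh38.p14), counting only tested replication-dependent members, the 14 fell into 5 runs in which every gene rose. These were H2BC3 with H3C3, H2BC8 with H2AC8, the run H4C6, H3C7, H2BC9, H3C8 and H2BC10, then H2AC14 with H2BC14, and the run H1-5, H3C11 and H4C13. Histone genes often start back to back from a shared stretch of DNA. Among the 62 genes with a promoter entry there were 12 such pairs within 2000 bases of start to start, 11 of them tested. In 5 pairs both genes rose, while in none did 1 gene rise alone. H3C11, which has no entry, and genes measured only by shared probesets were not searched for pairs. The starts lay 233 bases apart for H2BC8 and H2AC8 and 245 for H2AC14 and H2BC14. They lay much further apart in the other pairs that rose. These distances were 979 bases for H3C7 and H2BC9, 1518 for H3C8 and H2BC10, and 1671 for H2BC3 and H3C3. In the tested pairs in which neither gene rose, the starts lay 230 to 248 bases apart. Among closely spaced pairs, most therefore did not rise. The sizes within a pair differed, at 2.12 for H2BC8 beside 3.39 for H2AC8 and at 2.97 for H2AC14 beside 4.41 for H2BC14. Of 16 genes tested in the same interval that encode no histone, TRIM38 rose by 1.16 (SE 0.14) and the pseudogene ZNF204P fell by 1.97 on the log2 scale (SE 0.15), 1 gene in each direction against 8.37% of all genes. The butyrophilin gene BTN3A2 was just short of the threshold, at 0.9998 (SE 0.09). Without a limit on size 7 of the 16 passed as higher, against 27.6% of all genes, and 3 as lower, against 30.0%, and the median difference was 0.16.

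The 46 histone genes that did not pass were measured closely enough to bound most of them. For 42 of the 46, the 95% interval of the difference lay within 2-fold in either direction. A small group of cluster genes is known to make polyadenylated messages outside S phase in differentiated cells, and 6 of these were measured. None of the 6 passed, which in so short a list is near the background of 8.37% of all genes in each direction. The differences were −0.22 for H1-2, 0.20 for H2AC6, −0.09 for H2BC4, 0.04 for H2BC5, −0.57 for H2BC12 and 0.24 for H2BC21. H2BC12 was the only one of them to pass without a limit on size, with 10.50, 10.85, 10.48 and 11.05 in OVCAR-8R, against 11.25, 11.06, 11.21 and 11.64 in OVCAR-8 (SE 0.16, adjusted p in limma 0.013). The difference between this list and the rest of the family was not tested.

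None of the 10 variant histone genes changed by 2-fold or more. With so few genes this is near the background of 8.37% of all genes that rose and 8.37% that fell. Their median difference was −0.10. Without a limit on size 2 of the 10 passed as higher, against 27.6% of all genes, and 4 as lower, against 30.0%, and the arrays did not overlap in 6, against 56.8%, so these shares were near the background. H2AX, whose protein is phosphorylated around breaks in DNA, had 8.86, 9.01, 8.93 and 9.07 in OVCAR-8R, against 9.71, 9.76, 9.76 and 9.77 in OVCAR-8, a difference of −0.78 (SE 0.07). H3-3B, which encodes the replacement histone H3.3, had 12.08, 11.85, 11.92 and 11.88 in OVCAR-8R, against 11.27, 11.07, 11.19 and 11.16 in OVCAR-8, a difference of 0.76 (SE 0.08). The other H3.3 gene, H3-3A, is measured here only by 4 probesets that the annotation assigns to it together with a pseudogene, and these gave differences of −0.36 to −0.40. H2AX and H3-3B lay well outside the spread of their arrays while staying under 2-fold. H1-10, a linker histone that is not tied to replication, had 9.11, 8.73, 8.98 and 8.81 in OVCAR-8R, against 8.35, 8.41, 8.30 and 8.28 in OVCAR-8, a difference of 0.57 (SE 0.09). MACROH2A1 had 9.92, 9.95, 9.91 and 10.02 in OVCAR-8R, against 10.43, 10.45, 10.53 and 10.40 in OVCAR-8, a difference of −0.50 (SE 0.07). MACROH2A2, the related gene of the macrodomain histones found on silent chromatin, differed by −0.49 (SE 0.07), with 8.22 to 8.43 in OVCAR-8R, against 8.79 to 8.84 in OVCAR-8. The H2A.Z genes, whose protein marks promoters, were nearly level, at −0.21 (SE 0.07) for H2AZ1 and 0.23 (SE 0.10) for H2AZ2. H2AJ differed by 0.25 (SE 0.10), and the germ cell linker genes H1-8 and H1-7 by −0.19 (SE 0.10) and −0.01 (SE 0.09).

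**Figure D3:**
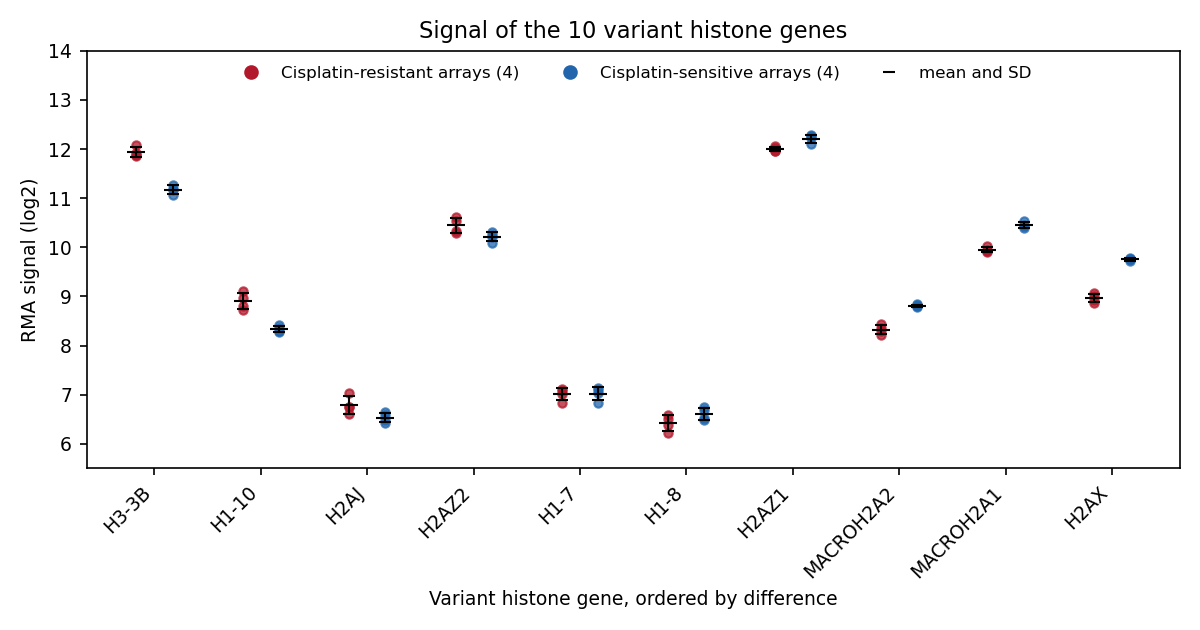
Log2 RMA signal of the 10 variant histone genes on each array, OVCAR-8R in red and OVCAR-8 in blue, with the mean and SD of 4 arrays per line. The lines are apart in 6 genes, with H3-3B and H1-10 higher and H2AZ1, MACROH2A2, MACROH2A1 and H2AX lower in OVCAR-8R, all by less than 2-fold.

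Histone copies are alike in sequence, so probes can catch more than one of them. The annotation assigns 24 further probesets to several genes at a time, at least 1 of them a histone gene. They hold 21 distinct sets of values and were all tested, and 1 rose, 2 fell and 21 did not pass, with differences between −1.04 and 1.04. The 2 that fell are assigned to H3C13, H3C14 and H3C15 together. Beyond these and the values given for H2AC20, H2AC21, H2BC21, H3C11, H3-3A, H4C14 and H4C15, no gene was named from the shared probesets. The probe sequences were not used here, so how far the rises of single genes are shared with their copies was not tested.

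Of 23 tested genes for transcription and 3′ processing of histone messages, none rose and 3 fell, against 8.37% of all genes in each direction, with a median difference of −0.24. SLBP, which binds the stem-loop at the end of the message, had 9.48, 9.35, 9.36 and 9.49 in OVCAR-8R, against 9.67, 9.66, 9.46 and 9.47 in OVCAR-8, and its arrays overlapped at a difference of −0.15 (SE 0.08). NPAT, the coactivator of the histone clusters, differed by −0.21 (SE 0.06), and its kinase CDK2 by 0.25 (SE 0.08). Of the cyclins that drive CDK2, CCNE1 differed by 0.94 (SE 0.07), just short of 2-fold, and CCNE2 by −0.62 (SE 0.10). ZNF473, a zinc finger protein that works with the U7 complex, fell by 1.43 on the log2 scale (SE 0.08). CPSF3, the nuclease that cuts the message, fell by 1.12 (SE 0.08), and the cleavage factor CSTF2 fell by 1.03 (SE 0.07). ZNF473 had 7.68, 7.78, 7.68 and 7.77 in OVCAR-8R, against 9.26, 9.26, 9.06 and 9.04 in OVCAR-8. The U7 proteins LSM10 and LSM11 differed by −0.27 (SE 0.11) and −0.45 (SE 0.09).

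Of 33 histone chaperone genes, whose proteins escort histones and place them on DNA, none rose and 6 fell, against 8.37% of all genes in each direction, with a median of −0.42. ANP32E, which removes H2A.Z, fell by 1.88 on the log2 scale (SE 0.11), with 7.25, 7.64, 7.53 and 7.76 in OVCAR-8R, against 9.30, 9.52, 9.36 and 9.51 in OVCAR-8. On the same scale MMS22L, which acts at damaged forks, fell by 1.49 (SE 0.14), and VPS72, an H2A.Z chaperone, fell by 1.27 (SE 0.07). UBN2, a partner of HIRA, fell by 1.25 (SE 0.10), while RBBP4 and RBBP7, which bind H3 and H4 in several complexes, fell by 1.08 (SE 0.08) and 1.03 (SE 0.06). CHAF1A and CHAF1B of the replication-coupled assembly factor differed by −0.47 (SE 0.09) and −0.77 (SE 0.13) without reaching 2-fold. ASF1A, which hands H3 and H4 on to that factor, differed by −0.79 (SE 0.07) and its relative ASF1B by 0.00 (SE 0.08). Of the H3.3 chaperones, HIRA differed by −0.60 (SE 0.12), DAXX by 0.76 (SE 0.08) and its partner ATRX by −0.74 (SE 0.11).

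Proliferation markers are given beside these values because cluster histone genes are transcribed in S phase. Of 30 S-phase markers 1 rose and 5 fell, with a median of −0.50, and of 17 markers of G2 and mitosis none rose and 3 fell, with a median of −0.22, where 8.37% of all genes rose and 8.37% fell. PCNA, the replication clamp, differed by −0.53 (SE 0.08), and MKI67, a marker of cycling cells, by −0.22 (SE 0.10). UHRF1, the S-phase marker that rose, lay at the threshold with 1.0002 (SE 0.08) and lost its call when any array other than OVCAR-8R array 4 or OVCAR-8 array 1 was left out, at 0.98 to 0.99, and when the mean of its probesets was used, at 0.56. The part of cell cycle phase in the histone differences was not tested.

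**Figure D4:**
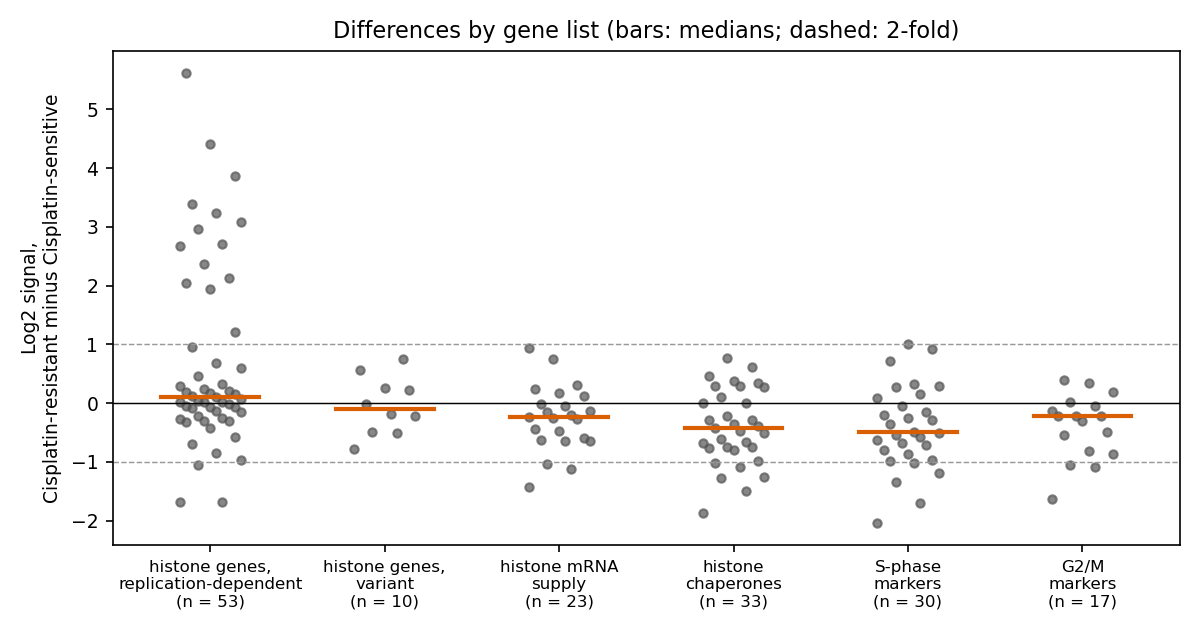
Difference in log2 signal, OVCAR-8R minus OVCAR-8, of each tested gene in 6 lists, with orange bars for the medians and dashed lines at 2-fold. The replication-dependent histone genes have a median of 0.10 with a tail of large rises up to 5.61, while the medians of the other lists lie between −0.50 and −0.10.

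The OVCAR-8R arrays fell into pairs, in the histone genes as over all genes. Arrays 1 and 3 deviated from the mean of their line together, as did arrays 2 and 4 (r over the histone probesets 0.60 and 0.55, and over all probesets 0.43 and 0.48, as a description across genes that share these arrays). Arrays 1 and 3 were both above arrays 2 and 4 in 30 of the 63 tested histone genes (47.6%) and both below in 12 (19%). Of all genes 33.8% were above and 33.8% below, so histone genes were split about as often as other genes. By count, most classes lay more often above than below on arrays 1 and 3, and H2B more often below. The 40% of H2B genes below is near the 33.8% of all genes, and a difference between classes was not tested. H1 genes were above in 4 of 5 and below in 1, H2A genes above in 8 of 13 and below in 1, and H3 genes above in 5 of 8 and below in none. H4 genes were above in 5 of 12 and below in 1, and variant genes above in 6 of 10 and below in 3, whereas H2B genes were above in 2 of 15 and below in 6. For H2BC14 the mean of arrays 1 and 3 was 10.30 and that of arrays 2 and 4 was 10.80, and for H1-5 these means were 10.22 and 9.78. The split was small beside the rises of these genes, and no label or header accounts for it.

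**Figure D5:**
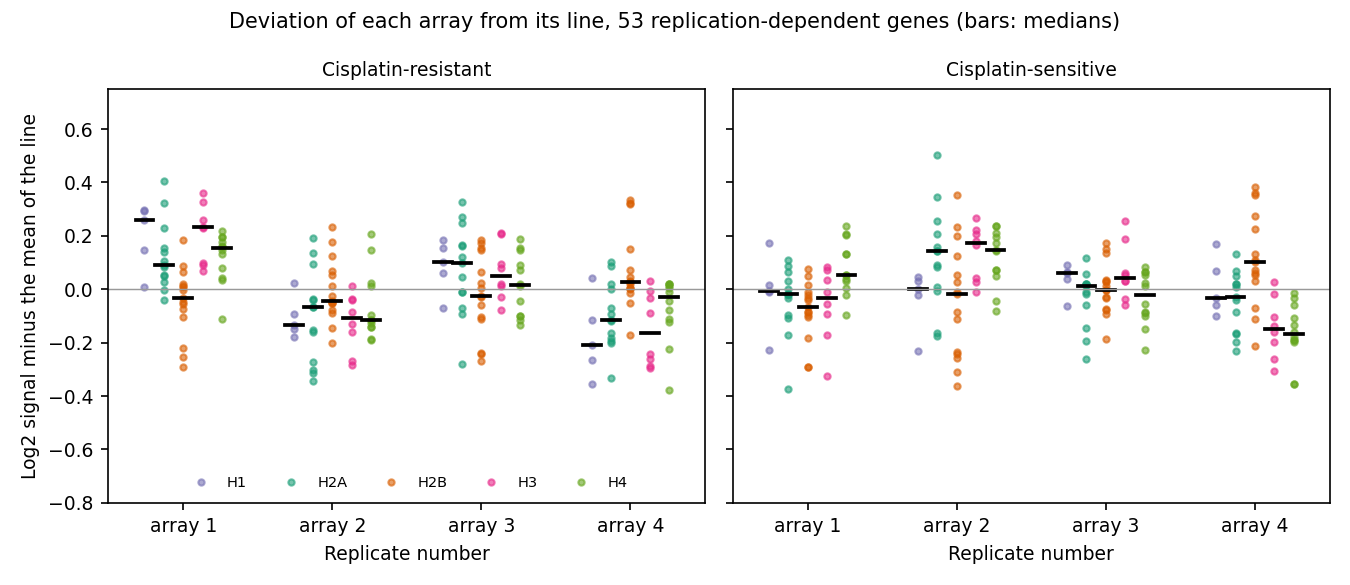
Deviation of each array from the mean of its line in log2 signal for the 53 tested replication-dependent histone genes, OVCAR-8R on the left and OVCAR-8 on the right, with points coloured by class and black bars for class medians. On OVCAR-8R array 1 the H1, H2A, H3 and H4 medians are above 0 and the H2B median below. On array 4 the H1, H2A, H3 and H4 medians are below 0 and the H2B median above.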

How the data were processed

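The authors ran RMA in Affymetrix Expression Console, and the deposited value is 1 linear intensity per probeset and array for 33297 probesets. RMA quantile-normalizes the arrays, so an overall difference between the lines is removed. The design assumed log2 values, and log2 of the intensity was taken here. As the study's methods state, a probeset among the dimmest 25% in each line was dropped, which kept 25628. Each gene was represented by its brightest probeset with 1 gene. The lines were compared in limma 3.58.1 (lmFit, eBayes) under R 4.3.3, over the probesets kept and without a replicate block, and calls needed a Benjamini-Hochberg adjusted p under 0.05 with a log2 difference of 1 or more in size. The procedure was tested on simulated data.

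The histone genes and the gene lists were chosen with earlier results of these data known. Named genes were all variants, the 8 largest rises and falls, up to 3 called genes per class, the 6 genes with polyadenylated messages and the 4 brightest others. Other genes named were chosen after their values were seen. Promoters come from RefSeq (GRCh38.p14), 250 bases before to 50 after the start, with the 1 listed first per gene. No coordinates are printed for probesets, since the sources used here do not name their build. Alternatives changed the filter, threshold, test, normalization, array weighting or choice of probeset, added a replicate block, or dropped 1 array at a time. Depth is not defined for arrays, so precision is limited by their number, 4 per line.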

Additional observations from a re-analysis of the deposited data

Results flagged for a closer look

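In 8 of 198 sets of 4 arrays tested, 1 array stood apart from the others of its line by Dixon's criterion, a rate that chance alone gives in about 1 of 20 sets. H2AC21 had 10.20 on OVCAR-8R array 3, against 10.56 to 10.58 on the others, and its fall was lost without that array. H2BC8 had 9.27 on OVCAR-8R array 3, against 9.06 on the others. H4C5 had 9.96 on OVCAR-8R array 4, against 10.06 to 10.08 on the others. H4C9 had 6.14 on OVCAR-8 array 1, against 5.95 to 5.98 on the others. On OVCAR-8 array 2, HIRA had 8.18, against 8.52 to 8.54, and NPAT had 10.27, against 10.23 on the others. UHRF1 had 9.68 on OVCAR-8R array 4, against 9.80 to 9.82 on the others, and 8.96 on OVCAR-8 array 1, against 8.71 to 8.72 on the others.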

How the results depend on the processing

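The 14 rises kept their direction under every alternative run, and H2BC10 alone lost its call, with treat and with a filter at the median signal. Of the falls, H2AC21 lost its call with treat (−1.06) and with cyclic loess (−0.93). With treat, 1 histone message gene and 3 chaperone genes were lower, and over all genes 832 were higher and 643 lower. With no limit on size, 10 replication-dependent genes were lower, 2 variant genes were higher and 4 lower, 4 message genes were higher and 11 lower, 8 chaperone genes were higher and 20 lower, and over all genes 4396 were higher and 4776 lower. Leaving out each array gave 14 to 15 replication-dependent genes higher and 2 to 4 lower, 0 variant genes, 0 message genes higher and 3 lower, 0 chaperone genes higher and 6 to 7 lower, and over all genes 1306 to 1359 higher and 1269 to 1401 lower. H2BC7 passed as higher without OVCAR-8R array 1 (1.05) or 3 (1.05) or OVCAR-8 array 4 (1.09), and with cyclic loess (1.03). H4C16 passed as lower without OVCAR-8R array 1 (−1.03) or OVCAR-8 array 3 (−1.05) or 4 (−1.04).

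Differences that changed sign were all near 0. With array weights H3C1 was −0.00511 and H3C10 −0.00813, with cyclic loess H2AC13 was 0.0323 and H3C2 0.0182, and with arrays centred on the median ASF1B was −0.00422. Leaving out each array gave −0.0763 to 0.0435 for H1-7, −0.0343 to 0.134 for H1-3, −0.0782 to 0.0531 for H2AC25, −0.123 to 0.0487 for H2AC13, −0.0917 to 0.00517 for H2BC11, −0.097 to 0.119 for H3C1, −0.0882 to 0.103 for H3C10, −0.0395 to 0.0786 for H3C12 and −0.0428 to 0.0489 for ASF1B.

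The deviations of same-numbered arrays of the lines correlated at 0.16, −0.32, −0.05 and 0.44 for numbers 1 to 4. Since not every number gave a positive correlation, the numbers were not taken to pair the samples. With the replicate number as a block 14 replication-dependent genes were higher and 3 lower, and 1334 genes were higher and 1334 lower over all genes. The cause of the changes with processing was not tested.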
